A study of Mus musculus with 4 samples.

Results

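The 40 genes described here encode enzymes and regulators of thiol-based antioxidant defence, and were chosen by symbol. They cover glutathione synthesis, reduction and transfer, glutathione peroxidases, peroxiredoxins, thioredoxins and glutaredoxins. The others belong to superoxide and peroxide removal, the NRF2 axis, and a group called NADPH supply, without the isocitrate dehydrogenases. All 40 symbols were among the 27998 features counted. The choice was made by symbol, but with earlier results of these data known. Their RNA was counted cell by cell in the bone marrow of mice, in 4 libraries, 1 per mouse, 2 labelled Idh1-WT and 2 labelled Idh1-R132H, here called Idh1-WT 1 and 2 and Idh1-R132H 1 and 2. Idh1-R132H cells were heterozygous for the mutant allele, and cells of both groups carried an EYFP reporter that tamoxifen given for 5 days switched on by recombination. EYFP-positive, lineage-negative marrow cells were isolated 2 weeks later and transplanted into irradiated mice without supporting marrow, and the chimeric marrow was taken 16 weeks after that. From each mouse, 4000 cells each of EYFP-positive total CD45.1-positive marrow, lineage-negative cKit-positive (LK) and lineage-negative Sca1-positive cKit-positive (LSK) cells were sorted into 1 tube, so the share of each cell class in a library reflects the sort as well as the marrow. The labels used here do not name the Cre driver or say whether donors differed between libraries of a group, so p-values measure the spread between these libraries, and counts of 3′ ends hold no information on the mutated base.

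Glutathione is made from its amino acids by glutamate-cysteine ligase, of which Gclc is the catalytic and Gclm the modifier subunit, and by glutathione synthetase (Gss). Peroxidases and transferases spend reduced glutathione, glutathione reductase (Gsr) restores it with NADPH, and the peroxiredoxin and thioredoxin system runs in parallel, with thioredoxin reductases (Txnrd1, Txnrd2) drawing on the same NADPH. Wild-type Idh1 makes NADPH in the cytosol, whereas the R132H enzyme consumes it to make 2-hydroxyglutarate. That places the NADPH users and the group called NADPH supply beside it. In that group Pgd makes NADPH directly, and Tkt and Taldo1 are pentose phosphate enzymes that do not make it themselves. Me1 and Me2 are malic enzymes. In neutrophils and monocytes, NADPH also feeds the oxidase that makes superoxide.

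After filtering, 15436 cells remained (4036, 3407, 3723 and 4270 in Idh1-WT 1, Idh1-WT 2, Idh1-R132H 1 and Idh1-R132H 2) from libraries of 40364701 to 56353466 UMIs (unique molecular identifiers, each a counted RNA molecule). Idh1-WT 1 and Idh1-R132H 1 shared 345 cell barcodes, against 13 to 33 for the other pairs. In 327 of these the Idh1-WT 1 entry was a low copy with at least 20-fold fewer UMIs, and 331 such copies over all libraries were removed. The granulocyte-monocyte progenitor count of members that passed, 2, was the same with the copies kept. Clusters of cells were named from marker genes (Elane, Mpo, Ctsg and Prtn3 for granulocyte-monocyte progenitors, Camp, Ltf and Ngp for neutrophil precursors, Retnlg and Mmp8 for neutrophils, Klf1 and Car1 for erythroid progenitors), with the members left out of the clustering. That gave 14 classes with at least 20 cells in each library, from 196 T or NK-like to 4745 stem and multipotent progenitor-like cells. A further cluster with G2 and M phase genes in the lead is counted among these 14 and was given no cell type. The stem and multipotent progenitor-like class is mixed. All 11 of its markers were detected in a cluster of 997 of its cells, but none was among that cluster's 10 leading genes, with Hist1h2ap, Pbk and Tyms in the lead. A cluster of 509 cells had 1 such marker, Ly6a, among its 10 leading genes. Folds over this class are folds over that mixture. Levels are UMIs of a gene per 1000000 UMIs of a class in a library (CPM), and are compared between classes within a gene, not between genes.

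Members fell into a few patterns of level across the marrow. Of the 40, 15 had their highest mean level in erythroid progenitor-, 7 in neutrophil-, 6 in monocyte-, 3 in stem and multipotent progenitor-, 3 in megakaryocyte progenitor-, 2 in neutrophil precursor- and 2 in granulocyte-monocyte progenitor-like cells, with Cat in basophil or mast- and Keap1 in mature B-like cells. In 11 of the 15 erythroid and 5 of the 7 neutrophil members, every library of the highest class lay above every library of the second class. These levels are a description and were not tested between classes. The same counts were not made over all genes, so they are not shown to be particular to the members.

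**Figure D1:**
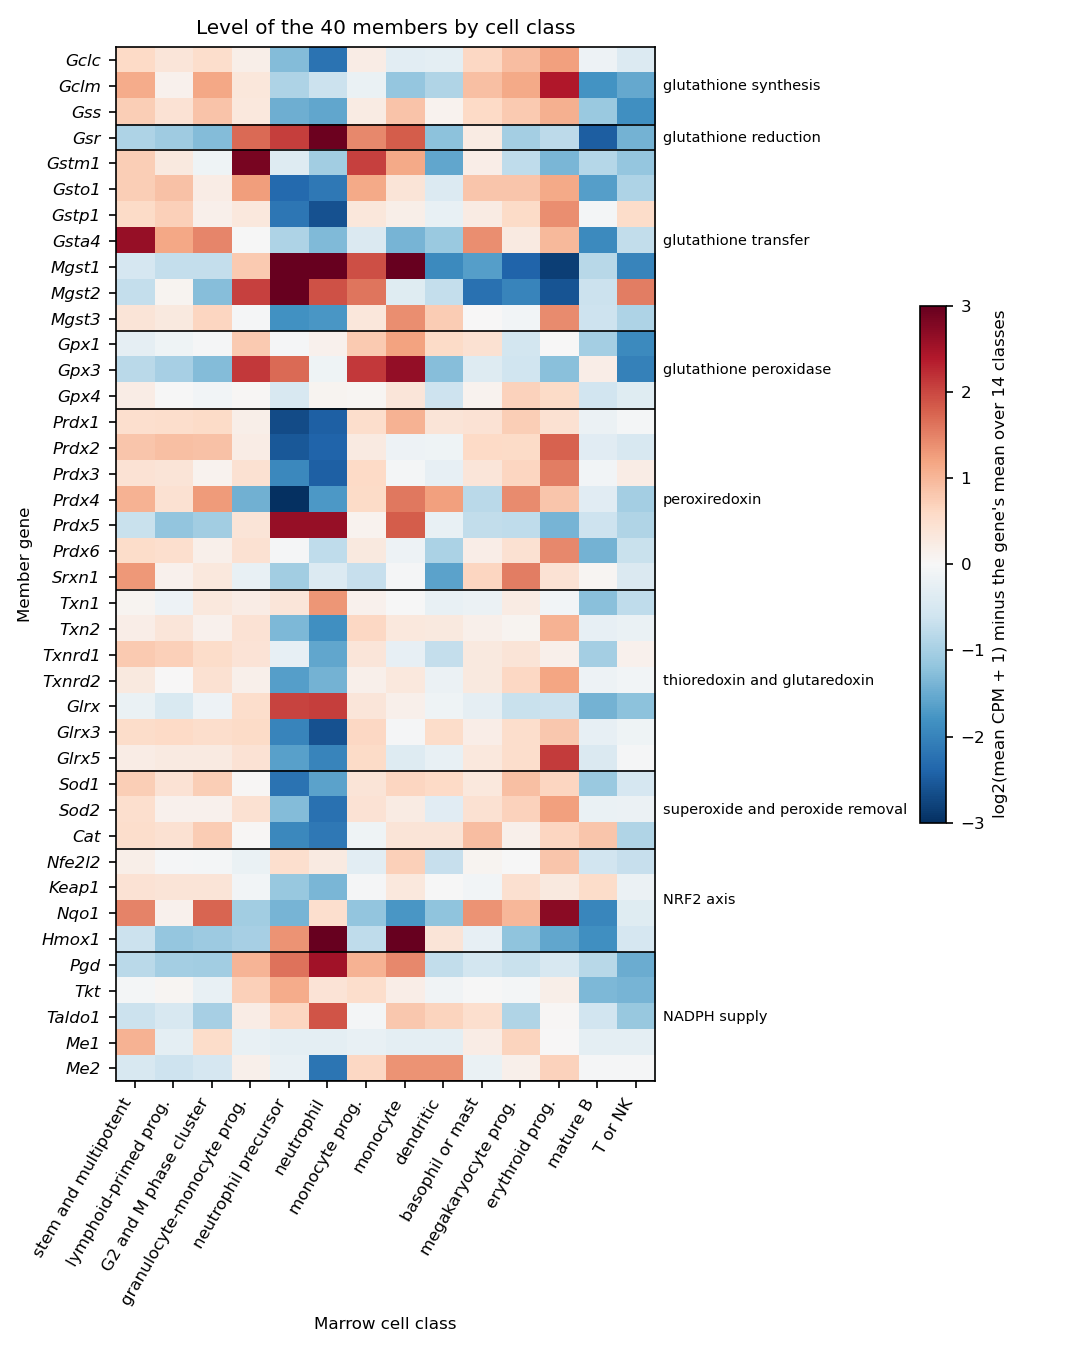
Level of the 40 members (rows, grouped by role) in 14 marrow cell classes (columns), as log2(mean CPM of 4 libraries + 1) minus the gene's mean over the classes, with colours saturating at -3 and 3. Gsr, Mgst1, Prdx5, Glrx, Pgd and Taldo1 are high in neutrophil-like cells, while most peroxiredoxins and mitochondrial thioredoxin genes are low there and high in erythroid progenitor-like cells.

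Among the genes of glutathione synthesis, Gclm stood at 353.9, 329.9, 361.4 and 340.5 CPM in the erythroid progenitor-like cells of Idh1-WT 1, Idh1-WT 2, Idh1-R132H 1 and Idh1-R132H 2, the order used for 4 values throughout. The next class, the G2 and M phase cluster, had 158.0, 144.7, 158.4 and 123.1 CPM, so the 2 classes did not overlap, and the mean was 2.37-fold higher in erythroid progenitor-like cells. Gclc, the catalytic subunit, was also highest there (20.8, 24.6, 13.7 and 19.6 CPM), but its libraries overlapped those of megakaryocyte progenitor-like cells (13.1 to 17.5 CPM). Gss was at 21.8 ± 3.92 CPM (SD, n = 4 libraries) in erythroid progenitor-like cells and overlapped monocyte-like cells too.

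Glutathione reductase was placed elsewhere. Gsr stood at 869.3, 761.4, 777.7 and 890.7 CPM in neutrophil-like cells, and at 497.5, 416.3, 443.1 and 437.8 CPM in neutrophil precursor-like cells, without overlap. In stem and multipotent progenitor-like cells it was at 56.1 ± 2.07 CPM, so the neutrophil mean was 14.7-fold and the granulocyte-monocyte progenitor mean 6.24-fold higher. Counted per cell the order differs: Gsr gave 6.98 ± 1.20 UMIs per granulocyte-monocyte progenitor-like cell, 2.76 ± 0.257 per neutrophil precursor-like cell and 1.44 ± 0.129 per neutrophil-like cell. Neutrophil-like cells held 1688 to 1794 UMIs each against 18695 to 21736 in granulocyte-monocyte progenitor-like cells, and S100a8 and S100a9 alone made up 31.9% to 32.9% of their UMIs. A high CPM in neutrophil-like cells is therefore a larger share of a small RNA pool. Less RNA in the cell and poorer capture of it cannot be told apart.

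The glutathione transferases split between lineages. Gstm1, a cytosolic mu-class transferase, was highest in granulocyte-monocyte progenitor-like cells at 908.9, 1011, 843.2 and 775.3 CPM, above the 447.9 to 548.6 CPM of monocyte progenitor-like cells in every library. In neutrophil precursor-like cells its mean was 93.4 ± 18.6 CPM. The microsomal transferases Mgst1 and Mgst2, which sit in membranes, were high later in the lineage. Mgst1 reached 1170 ± 108 CPM in neutrophil-like cells, 24.1-fold over stem and multipotent progenitor-like cells. Mgst2 peaked in neutrophil precursor-like cells at 333.4, 287.4, 313.5 and 307.6 CPM, 2.45-fold above granulocyte-monocyte progenitor-like cells and without overlap, and was at 4.11 ± 1.61 CPM in erythroid progenitor-like cells. Gstp1 was highest in erythroid progenitor-like cells (451.5 ± 30.7 CPM), but 67.7% of the 96-base windows in the last 500 bases of its transcript also occur in Gstp2 or a pseudogene, so its counts are uncertain. Gsta4 was highest in stem and multipotent progenitor-like cells (22.3 ± 3.39 CPM), and Gsto1 in granulocyte-monocyte progenitor-like cells (282.6 ± 10.7 CPM), where it overlapped monocyte progenitor-like cells.

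The peroxide-reducing enzymes also divided by lineage. Gpx1, the cytosolic glutathione peroxidase, was highest in monocyte-like cells at 3255, 3110, 3122 and 3243 CPM, against 2321 to 2383 CPM in monocyte progenitor-like cells. Gpx4, which reduces lipid hydroperoxides, varied less than most members, from 381.6 CPM in dendritic- to 957.1 ± 22.7 CPM in megakaryocyte progenitor-like cells. For Gpx4, 76.3% of the same 3′ windows are shared with a pseudogene or an unnamed gene, so its counts are uncertain too. Of the peroxiredoxins, Prdx2, Prdx3 and Prdx6 were highest in erythroid progenitor-like cells (890.6 ± 73.6, 237.7 ± 15.3 and 783.2 ± 49.3 CPM), each without overlap with the next class. Prdx1 was highest in monocyte-like cells (1185, 1232, 1202 and 1116 CPM) and was at 88.6 ± 8.03 CPM in neutrophil precursor-like cells. Prdx5 went the other way, at 2557 ± 74.5 CPM in neutrophil precursor- and 2562 ± 83.8 CPM in neutrophil-like cells against 259.7 ± 8.67 CPM in stem and multipotent progenitor-like cells. Prdx1 and Prdx5 thus stood in opposite order in these classes.

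The cytosolic and mitochondrial thioredoxins differed in the same manner. Cytosolic Txn1 was highest in neutrophil-like cells at 2009, 2013, 1918 and 1787 CPM, 1.95-fold above neutrophil precursor-like cells. Mitochondrial Txn2 was highest in erythroid progenitor-like cells (281.3 ± 5.17 CPM) and at 37.5 CPM in neutrophil-like cells. Txnrd1, the cytosolic reductase, was highest in stem and multipotent progenitor-like cells (43.2, 50.7, 48.8 and 45.9 CPM), which overlapped lymphoid-primed progenitor-like cells, and at 8.46 CPM in neutrophil-like cells. The mitochondrial Glrx5, needed for iron-sulfur cluster assembly, had the largest gap to the second class of all 40 members: 507.0 ± 21.6 CPM in erythroid progenitor-like cells, 2.91-fold above monocyte progenitor-like cells. Cytosolic Glrx was at 372.5 ± 38.2 CPM in neutrophil- and 363.3 CPM in neutrophil precursor-like cells, which overlapped. Mitochondrial Sod2 was highest in erythroid progenitor-like cells (223.0 ± 9.62 CPM).

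Nfe2l2, which encodes the transcription factor NRF2, was at 102.4, 104.1, 90.2 and 96.5 CPM in erythroid progenitor- and at 85.1, 73.5, 109.5 and 94.4 CPM in monocyte-like cells, which overlapped. Its target genes did not share one pattern. Nqo1 was at 24.3 ± 4.96 CPM in erythroid progenitor-like cells, above all other classes, whereas Hmox1, which degrades haem, was at 68.2 ± 16.8 CPM in monocyte- and 55.4 CPM in neutrophil-like cells.

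The pentose phosphate genes were high in the neutrophil lineage. Pgd, which makes NADPH directly, stood at 433.9, 496.7, 453.7 and 462.2 CPM in neutrophil-like cells, 10.3-fold over stem and multipotent progenitor-like cells. Taldo1 was at 1864 ± 31.7 CPM there, 2.09-fold above the second class, monocyte-like cells. Tkt peaked in neutrophil precursor-like cells (718.7, 732.0, 761.9 and 735.8 CPM) and was at 451.3 ± 28.4 CPM in neutrophil-like cells. Of the malic enzymes, mitochondrial Me2 was at 102.0 CPM in both monocyte- and dendritic-like cells, and cytosolic Me1 reached no more than 1.51 ± 0.663 CPM in any class, close to absence at this depth.

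**Figure D2:**
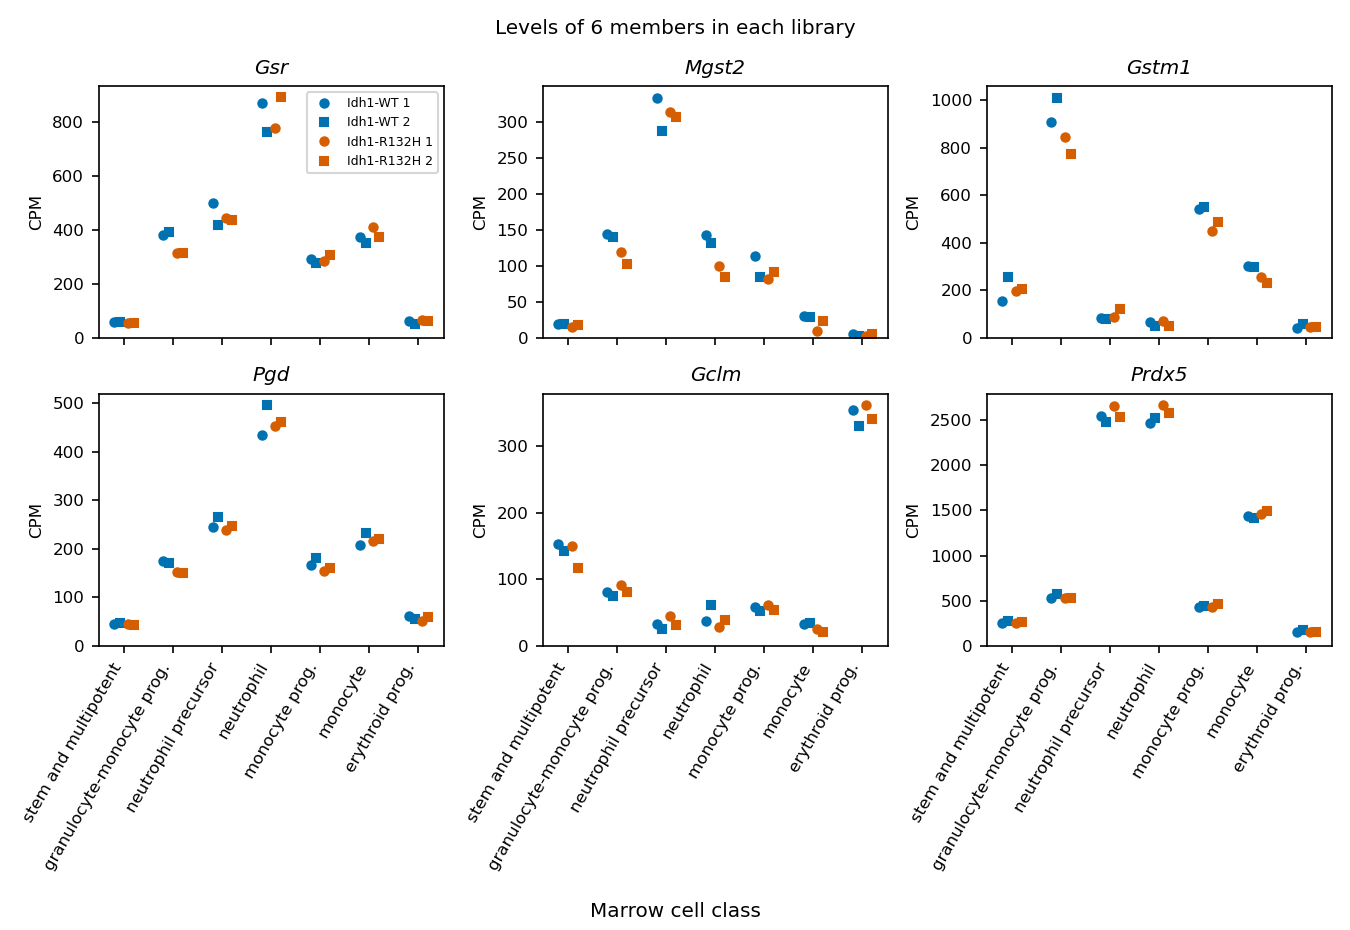
CPM (linear axes from 0) of 6 members in 7 cell classes. Each point is 1 library, blue for Idh1-WT and orange for Idh1-R132H. Gsr and Pgd are highest in neutrophil-, Mgst2 in neutrophil precursor-, Gstm1 in granulocyte-monocyte progenitor- and Gclm in erythroid progenitor-like cells. In granulocyte-monocyte progenitor-like cells both Idh1-R132H points lie below both Idh1-WT points for Gsr, Mgst2, Gstm1 and Pgd.

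The comparison of genotypes asked whether members differed in RNA level between Idh1-R132H and Idh1-WT cells of the same class. In granulocyte-monocyte progenitor-like cells, glutathione reductase and a microsomal transferase were lower in Idh1-R132H. Gsr (ENSMUSG00000031584, chromosome 8, 33652523 to 33698163, plus strand, GRCm38) stood at 379.0 and 393.0 CPM in the 2 Idh1-WT libraries and at 315.2 and 312.4 CPM in the 2 Idh1-R132H libraries. The groups did not overlap, and the log2 difference (Idh1-R132H minus Idh1-WT) was −0.28 (SE 0.04, adjusted p = 0.00232, edgeR's quasi-likelihood test with Benjamini-Hochberg adjustment over all genes tested). Mgst2 (ENSMUSG00000074604, chromosome 3, 51660360 to 51682677, plus strand) stood at 145.0 and 139.5 against 119.6 and 103.0 CPM, again without overlap (log2 difference −0.34, SE 0.06, edgeR adjusted p = 0.0227). With the replicate number as a block the edgeR adjusted p of Mgst2 was 0.0546, which ends its call, and that of Gsr 0.0434.

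Of 38 members tested in this class, these 2 passed and both fell, while 26 of all 10803 genes tested passed (0.241%), 20 of them lower (0.185%). The median log2 difference was −0.043 over the 38 members and 0.0054 over all genes, and 25 members had a value below 0. The share of all genes below 0 is not given here, so that count is not read as a result about the members. By role, Gsr was the 1 gene of glutathione reduction, Mgst2 was 1 of 7 transferases, and none of the 3 synthesis genes, 3 glutathione peroxidases, 7 peroxiredoxin genes, 7 thioredoxin and glutaredoxin genes, 3 genes of superoxide and peroxide removal, 3 NRF2 axis genes or 4 NADPH supply genes passed. Me1 and Hmox1 were filtered out for low counts.

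Several members below these 2 in the ranking did not pass, although their groups did not overlap. How often groups of 2 libraries stand apart among all genes was not counted. Lack of overlap is therefore not read as a result about the members. Gstm1 (ENSMUSG00000058135, chromosome 3, 108012255 to 108017973, minus strand) stood at 908.9 and 1011 against 843.2 and 775.3 CPM (log2 difference −0.23, SE 0.05, edgeR adjusted p = 0.107). Its call depended on the setting, and it passed in 6 of 20 alternatives. DESeq2 gave an adjusted p of 0.0385 and edgeR 0.00521 at resolution 2 of the clustering. With the replicate number as a block edgeR gave 0.324. With a library left out the log2 difference ran from −0.30 (without Idh1-WT 1) to −0.16 (without Idh1-WT 2). Pgd stood at 174.2 and 170.8 against 151.1 and 150.6 CPM (−0.18, edgeR adjusted p = 0.173), and the 4 tested NADPH supply genes had values from −0.18 to −0.080. Of the 3 synthesis genes, Gss had a value below 0 (−0.12, edgeR adjusted p = 0.822) and the other two had values above 0, with Gclm at 81.2 and 74.6 against 91.1 and 81.1 CPM (0.15, edgeR adjusted p = 0.462) and Gclc at 8.11 and 8.22 against 9.53 and 10.2 CPM (0.29, edgeR adjusted p = 0.549). Some other abundant members stood closer together in the 4 libraries than Gstm1, among them Gpx4 at 604.8, 601.6, 604.2 and 601.5 CPM, Txn1 at 912.9, 885.5, 890.0 and 911.1 CPM, and Prdx1 at 680.6, 637.5, 641.2 and 647.2 CPM.

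**Figure D3:**
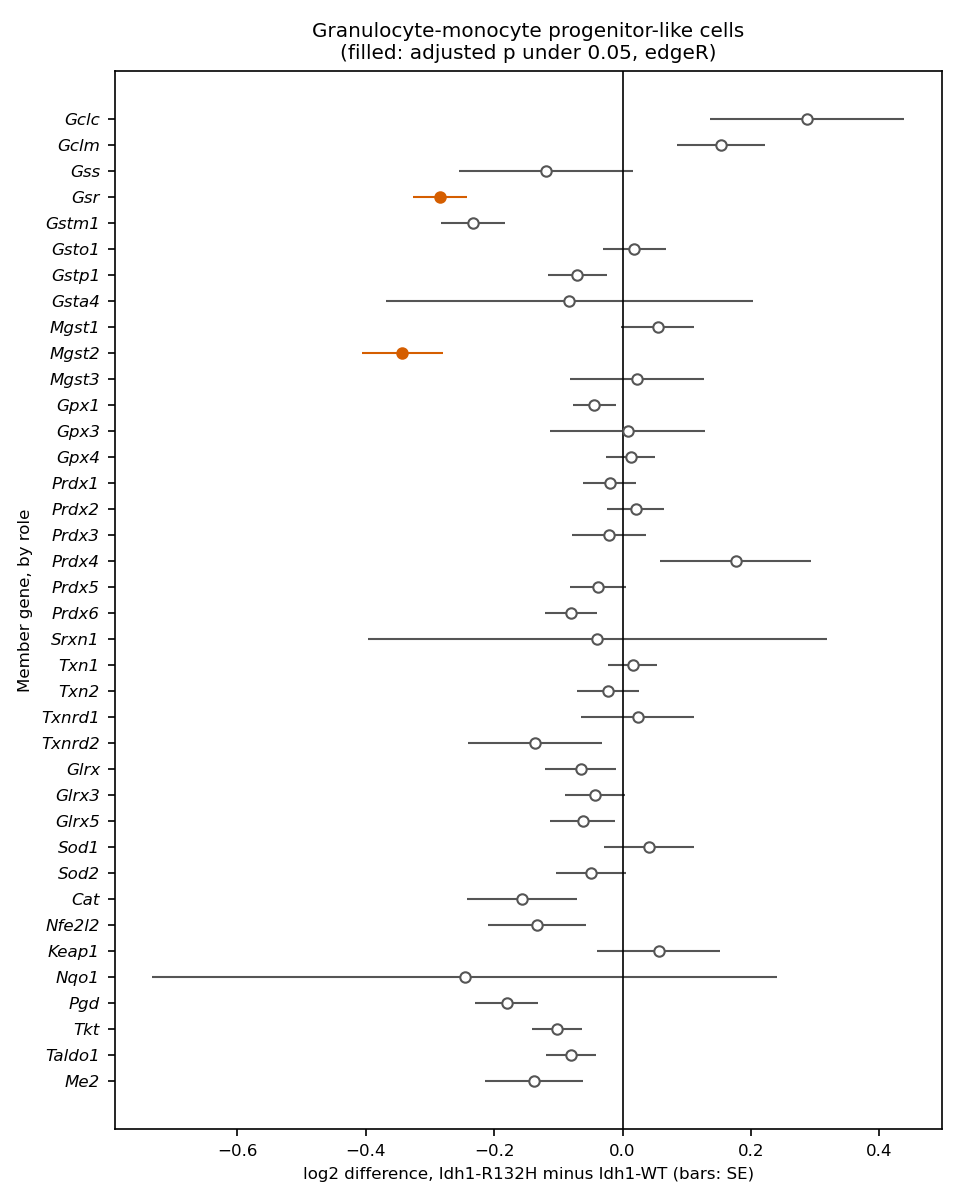
Log2 difference of the 38 members tested in granulocyte-monocyte progenitor-like cells (horizontal axis, Idh1-R132H minus Idh1-WT, bars are standard errors of the edgeR fit), ordered by role. The 2 filled points, Gsr at −0.28 and Mgst2 at −0.34, passed the adjusted p of 0.05. Open points did not.

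The antioxidant response element, the site that NRF2 binds, was searched as TGACNNNGC on both strands of the 250 bases before each transcription start in RefSeq's table for GRCm38.p6. The table held 34 of the 40 members, and not Gclc, Gsr, Gsta4, Prdx6, Hmox1 and Me2. The pattern occurred for 6 of the 34 (17.6%), Gclm, Mgst1, Nfe2l2, Prdx1, Sod1 and Txnrd1, and for 11.5% of all 27025 genes of the table. In granulocyte-monocyte progenitor-like cells these 6 had log2 differences from −0.13 (Nfe2l2) to 0.15 (Gclm), 2 below and 4 above 0, and none passed. A second pattern, TTGCNNAA for C/EBP factors, was searched in the same windows. It occurred for 2 of the 34 (5.88%), Mgst1 and Prdx3, and for 10.8% of all genes of the table. The 3 windows below, chosen after the values were seen, show Mgst2 and Gstm1, in which neither pattern occurs, and Gclm. In Gclm a match to the first pattern lies on the opposite strand from position −134 to −126. The windows are not evidence that a match goes with a direction. Each is 250 bases, 5′ to 3′ on the gene's strand, with the match in capitals. They are chr3:51660929-51661178 (plus strand) for Mgst2, chr3:108017819-108018068 (minus strand) for Gstm1 and chr3:122245307-122245556 (plus strand) for Gclm. Starts differ between annotations: the Mgst2 window lies inside the gene as GENCODE bounds it, above, and the Gstm1 window, at 1 of 2 RefSeq starts, overlaps the GENCODE gene.
Mgst2: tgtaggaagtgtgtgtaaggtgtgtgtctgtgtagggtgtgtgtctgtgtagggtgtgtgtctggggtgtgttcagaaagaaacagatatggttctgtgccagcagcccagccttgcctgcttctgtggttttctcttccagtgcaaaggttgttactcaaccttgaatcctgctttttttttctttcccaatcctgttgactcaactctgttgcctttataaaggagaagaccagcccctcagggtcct
Gstm1: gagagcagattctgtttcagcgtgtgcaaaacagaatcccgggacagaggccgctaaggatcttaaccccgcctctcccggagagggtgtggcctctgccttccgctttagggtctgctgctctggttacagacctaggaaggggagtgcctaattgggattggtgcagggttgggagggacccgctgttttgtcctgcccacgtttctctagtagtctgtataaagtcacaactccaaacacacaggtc
Gclm: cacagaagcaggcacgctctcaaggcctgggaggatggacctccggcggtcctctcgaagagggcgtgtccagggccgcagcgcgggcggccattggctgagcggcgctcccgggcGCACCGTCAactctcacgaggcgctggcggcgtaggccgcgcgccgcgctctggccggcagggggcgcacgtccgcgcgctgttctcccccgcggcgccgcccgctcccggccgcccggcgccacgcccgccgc

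The granulocyte-monocyte progenitor-like class held 2 clusters, led by Elane and by Cpa3, and the differences were read in each, a split added after the data were seen. The Cpa3-led cluster held 878 of the 2348 cells and its name is less sure. All 8 markers of the class were detected in it, but only 1, Cebpa, was among its 10 leading genes. Beside it stood Cpa3, a basophil or mast cell marker, and Cd34, a stem and multipotent progenitor marker. In the Elane-led cluster, whose cells carry the primary granule proteases, Gsr stood at 486.8 and 489.2 against 393.3 and 403.4 CPM (log2 difference −0.27, SE 0.04, edgeR adjusted p = 0.000225). Mgst2 (190.7 and 180.2 against 158.9 and 140.7 CPM, edgeR adjusted p = 0.00428) and Gstm1 (1215 and 1297 against 1111 and 1058 CPM, edgeR adjusted p = 0.00828) were lower as well. These were 3 of 37 members tested there, with 0.646% of all genes passing.

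In the Cpa3-led cluster Gsr stood at 112.2 and 107.8 against 112.5 and 115.1 CPM (0.060, edgeR adjusted p = 0.977), with no lower value in Idh1-R132H. Mgst1 rose there, from 65.1 and 48.3 to 75.3 and 92.7 CPM (0.56, SE 0.12, edgeR adjusted p = 0.0422), the 1 member of 35 that passed against 0.247% of all genes. The test of the difference between the 2 clusters passed for none of the 37 members (0.0579% of all genes passed). It gave −0.33 for Gsr (SE 0.08, edgeR adjusted p = 0.198) and −0.56 for Mgst1 (SE 0.12, edgeR adjusted p = 0.0819). The Elane-led cluster made up 62.8%, 65.3%, 63.4% and 59.8% of the class, so its share overlapped between groups.

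Other measures moved with the genotype in this class. The median UMIs per cell were 21478, 19475, 18863.5 and 18402, lower in both Idh1-R132H libraries. The median mitochondrial share was 2.08%, 2.02%, 2.12% and 2.14%, higher in both Idh1-R132H libraries. Cells that carried Xist and no transcript of a Y-linked gene made up 77.4%, 59.1%, 51.2% and 39.1% of the class, higher in both Idh1-WT libraries. In these cells Gsr stood at 370.8 and 389.8 against 287.0 and 321.1 CPM (−0.30, SE 0.06, edgeR adjusted p = 0.0101; 2 of 37 members and 0.232% of all genes passed). In cells with Y-linked transcripts and no Xist it stood at 367.4 and 361.7 against 366.1 and 315.4 CPM (−0.079, SE 0.07, edgeR adjusted p = 0.929), and no member of 35 passed (0.124% of all genes; 3 members at an unadjusted p under 0.05). That group held 38 cells of Idh1-WT 1. The difference between the 2 kinds of cell, −0.23 for Gsr, had an edgeR adjusted p of 0.803, and no member of 36 passed (0.158% of all genes).

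The summed level of 14 immediate early genes was also lower in Idh1-R132H, at 656.3, 699.4, 569.5 and 537.9 CPM, as was that of 16 G2 and M phase genes (1417, 1518, 1314 and 1307 CPM). The 10 neutrophil markers summed to 4167, 4925, 4127 and 4110 CPM, lower in both Idh1-R132H libraries by a narrow margin, and the 8 neutrophil precursor markers to 889.4, 1004, 781.9 and 960.8 CPM, which overlapped. None of the markers of these 2 lists was at 0. Most of the neutrophil marker sum came from S100a8 and S100a9, which made up 0.399%, 0.474%, 0.395% and 0.393% of the UMIs of the class. That sum is therefore not read as a result about the whole list. The part of these measures, UMIs per cell and mitochondrial share among them, in the lower Gsr and Mgst2 levels was not tested. Leaving out libraries limited the calls: without Idh1-R132H 1 the edgeR adjusted p of Gsr was 0.0517 and without Idh1-R132H 2 0.0899. For Mgst2 it was 0.466 without Idh1-R132H 2 and 0.145 without Idh1-WT 1.

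No member passed in the other 13 classes with edgeR, and none with DESeq2. Percentages of all genes, here and above, count genes past the adjusted p of 0.05. Members at an unadjusted p under 0.05 are counted at another threshold. Those counts are not to be set against the percentages, and are not read as a result about the members. In stem and multipotent progenitor-like cells, from which the granulocyte-monocyte progenitors arise, none of 40 members passed (0.0778% of all genes; 4 members at an unadjusted p under 0.05). Gsr was at 57.8 and 57.9 against 54.2 and 54.4 CPM (−0.10, edgeR adjusted p = 1.00). The 2 smallest p-values were those of Gsta4 (25.7 and 24.5 against 20.4 and 18.5 CPM, edgeR adjusted p = 0.723) and Sod2 (140.4 and 143.2 against 125.7 and 127.1 CPM, edgeR adjusted p = 1.00).

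In monocyte progenitor-like cells none of 36 members passed (0.245% of all genes, 2 members at an unadjusted p under 0.05), and Gsr stood at 292.4 and 278.1 against 282.9 and 307.6 CPM, which overlapped. Gstm1 stood lower in Idh1-R132H there, at 544.0 and 548.6 against 447.9 and 489.6 CPM (−0.20, SE 0.05, edgeR adjusted p = 0.131), as did Prdx6, at 368.0 and 381.2 against 330.6 and 332.0 CPM (−0.15, edgeR adjusted p = 0.307). The Gsr difference was tested between the classes. Its effect in granulocyte-monocyte progenitor-like cells was −0.35 relative to that in monocyte progenitor-like cells (SE 0.06, edgeR adjusted p = 0.00108), and Gsr was the 1 gene of 10809 to pass (0.00925%), hence 1 of 39 members.

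In neutrophil precursor-like cells none of 34 members passed (0.554% of all genes, 2 members at an unadjusted p under 0.05). Gsr overlapped at 497.5 and 416.3 against 443.1 and 437.8 CPM, and so did Mgst2 at 333.4 and 287.4 against 313.5 and 307.6 CPM. Gstm1 had values in the opposite order to those in the progenitors, 83.6 and 79.8 against 89.7 and 120.7 CPM (0.36, SE 0.13, edgeR adjusted p = 0.261). That order was not stable: the value was −0.073 at clustering resolution 2 and −0.062 with the pathway genes kept in the clustering. The effect on Gstm1 differed between granulocyte-monocyte progenitor- and neutrophil precursor-like cells by −0.60 (SE 0.14, edgeR adjusted p = 0.00593), 1 of 37 members against 0.211% of all genes. At clustering resolution 2 that difference was −0.15 with an edgeR adjusted p of 0.912, so the call was lost with that division of the cells. No member passed in the tests of stem and multipotent progenitor- against granulocyte-monocyte progenitor-like cells (0.00839% of all genes; 1 member at an unadjusted p under 0.05, Gclm), monocyte progenitor- against monocyte-like cells (0.0601%) or neutrophil precursor- against neutrophil-like cells (0.116%).

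In neutrophil-like cells none of 25 members passed (0.338% of all genes). An unadjusted p under 0.05 was found for 2 of the 25 members and for 242 of all 3256 genes tested. Gpx1 stood at 1578 and 1724 against 1316 and 1387 CPM (−0.30, edgeR adjusted p = 0.338) and Mgst2 at 143.2 and 132.3 against 99.4 and 84.2 CPM (−0.61, edgeR adjusted p = 0.432), each without overlap. Gsr was at 869.3 and 761.4 against 777.7 and 890.7 CPM and overlapped. In monocyte-like cells none of 35 passed (0.591% of all genes, 6 members at an unadjusted p under 0.05). Gstm1 had the smallest p (302.1 and 296.8 against 257.0 and 230.6 CPM, −0.28, edgeR adjusted p = 0.215), followed by Mgst2 (30.6 and 28.8 against 9.06 and 23.7 CPM, edgeR adjusted p = 0.413).

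The erythroid progenitor-like cells, where 15 members were highest, showed no member past the test among 36 (0.0727% of all genes, 5 members at an unadjusted p under 0.05). Mgst3 stood at 96.1 and 79.5 against 64.5 and 60.5 CPM (−0.52, SE 0.14, edgeR adjusted p = 0.344), and passed without Idh1-WT 2 (edgeR adjusted p = 0.00241). Cat stood at 52.7 and 63.0 against 37.0 and 42.5 CPM (−0.52, edgeR adjusted p = 0.563). In megakaryocyte progenitor-like cells (none of 33, 0.154% of all genes, 3 at an unadjusted p under 0.05) Sod1, the cytosolic superoxide dismutase, had values in the opposite direction, 110.9 and 106.9 against 144.4 and 136.0 CPM (0.38, edgeR adjusted p = 0.461). Prdx6 was at 439.4 and 419.4 against 352.3 and 367.4 CPM (−0.23, edgeR adjusted p = 0.527).

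None of 36 members passed in the G2 and M phase cluster (0.104% of all genes, 5 members at an unadjusted p under 0.05), where Gstp1 (209.4 and 202.4 against 169.9 and 180.5 CPM) and Me2 had the smallest p. None of 28 passed in dendritic- (0.215%, led by Gpx4 and Sod1, each higher in both Idh1-R132H libraries), 32 in basophil or mast- (0.0189%, led by Gstm1 and Gsto1) or 32 in lymphoid-primed progenitor-like cells (0.0166%, led by Prdx1 and Prdx6). These had 1, 2 and 1 members at an unadjusted p under 0.05. In mature B- and T or NK-like cells no gene passed at all (0%), and 3 of 20 and 1 of 18 members had an unadjusted p under 0.05, with Prdx4 and Prdx1 leading in mature B- and Gpx1 and Sod2 in T or NK-like cells. Of all 2606 genes tested in mature B-like cells, 148 had an unadjusted p under 0.05.

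**Figure D4:**
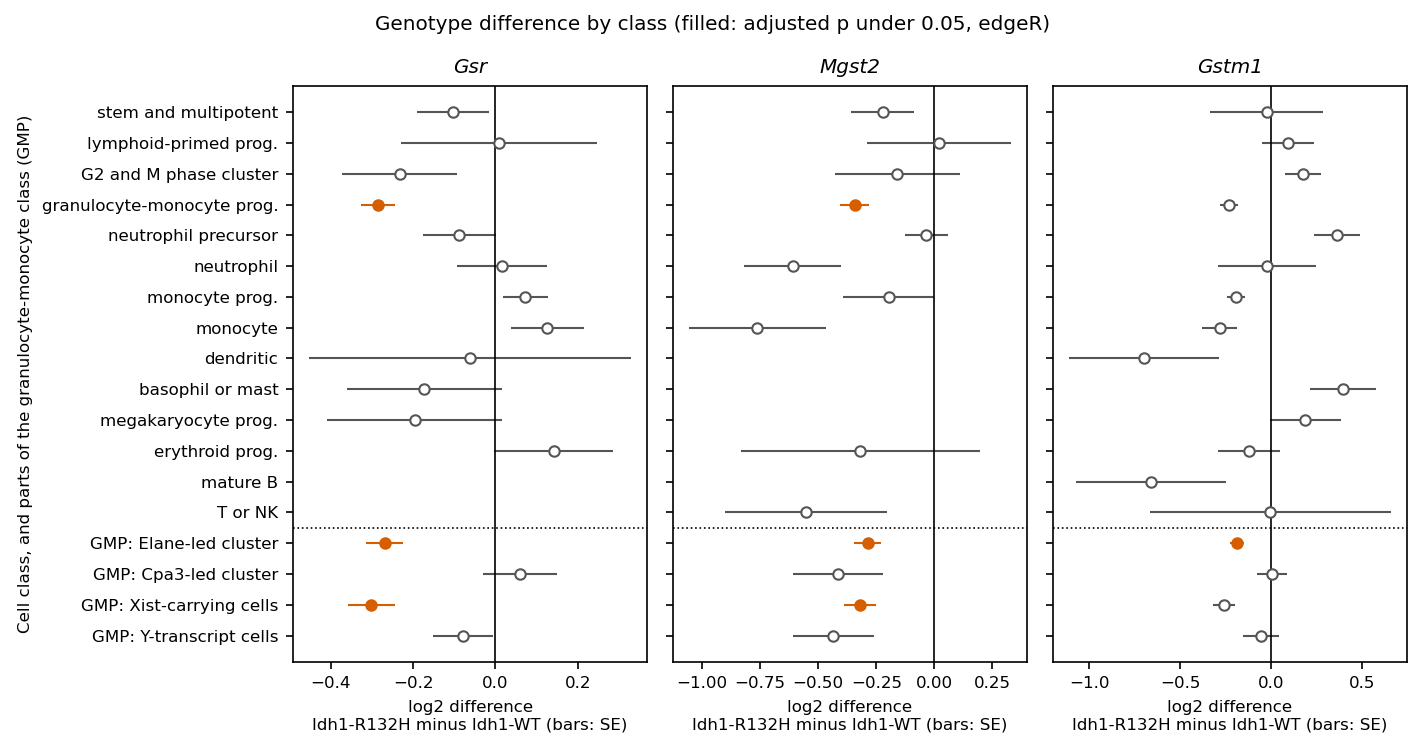
Log2 difference between genotypes (Idh1-R132H minus Idh1-WT, bars are standard errors) of Gsr, Mgst2 and Gstm1 in each class where the gene was tested and, below the dotted line, in parts of the granulocyte-monocyte progenitor-like class (GMP). The horizontal scales differ between panels. Filled points passed an edgeR adjusted p of 0.05: for Gsr −0.28 in the class, −0.27 in its Elane-led cluster and −0.30 in its Xist-carrying cells.

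Other genes of the same pathways were followed from 4 lists of 28 glutathione, 15 thioredoxin-fold and repair, 18 NADPH supply and 14 NRF2 partner and target genes. None passed in any of the 14 classes, in either direction. In granulocyte-monocyte progenitor-like cells 18, 13, 15 and 12 of them were tested, with medians of −0.12, −0.047, −0.022 and −0.012 on the log2 scale, against 0.0054 over all genes. G6pdx, the first enzyme of the pentose phosphate pathway, was at 36.5 and 32.7 against 33.0 and 35.0 CPM and overlapped. Idh1 itself was at 75.9 and 79.6 against 73.2 and 67.1 CPM (−0.13, edgeR adjusted p = 0.515), and mitochondrial Idh2 at 291.0 and 289.2 against 278.7 and 292.5 CPM, which overlapped. Txnip, the inhibitor of thioredoxin, was at 17.5 and 13.9 against 19.5 and 19.7 CPM (0.32, edgeR adjusted p = 0.379), and the cystine carrier gene Slc7a11 was barely detected, at 1.51 to 1.90 CPM.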

How the data were processed

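The authors deposited unnormalized UMI counts of every barcode, empty droplets included. The submitters' processing notes name Cell Ranger 4.0.0, Seurat and the build GRCm38 (mm10). Barcodes with at least 500 UMIs, 200 genes and at most 10% mitochondrial UMIs gave 16280 cells. Low copies (331) and the 513 cells with the highest Scrublet scores, the number expected, were removed, since Scrublet's own threshold marked 111 (0.696%). Cells were clustered in scanpy 1.11.5 (2000 variable genes without pathway genes, 30 components, 15 neighbours, Leiden resolution 1). The 23 clusters were named from markers, with the copy rule and naming limits set after the data were seen, so names may differ from the study's. A cluster of 142 low-UMI cells stayed unnamed, and 85 B cell precursor-like cells were too few to test. Coordinates are from GENCODE vM21, which held 27722 of 27998 features.

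Counts were summed per library and class and tested with edgeR 4.0.16 (TMM, filterByExpr, robust quasi-likelihood) at an FDR of 0.05 over all genes tested, after a check on simulated data. Differences of effect used a genotype by class term. In each class, members past the FDR and the 2 with the smallest p are named, and every member is placed by its class of highest level. The members and lists were chosen with earlier results of these data known. Alternatives were RLE factors, no filter, DESeq2 1.42.0, a replicate block, each library left out, at least 1000 UMIs, at most 5% mitochondrial UMIs, doublets kept, resolution 2, pathway genes kept, a class per cell, subtraction of free RNA (from barcodes with at most 50 UMIs) and Xist-carrying cells alone. Low copies kept, each progenitor cluster alone, cells without Xist alone and a block with crossed numbers in 2 classes were chosen after seeing the data. The labels do not say that replicate numbers pair the libraries.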

Additional observations from a re-analysis of the deposited data

Results flagged for a closer look

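The genotype effect on Gsr differed between granulocyte-monocyte progenitor- and monocyte progenitor-like cells by −0.35 on the log2 scale in a test of the difference itself (SE 0.06, edgeR adjusted p = 0.00108). Gsr was lower in Idh1-R132H in the first class, in both libraries, and overlapped in the second. The effect on Gstm1 differed between granulocyte-monocyte progenitor- and neutrophil precursor-like cells by −0.60 (SE 0.14, edgeR adjusted p = 0.00593). Gstm1 was lower in both Idh1-R132H libraries in the first class and higher in both in the second. At clustering resolution 2 the difference was −0.15 (edgeR adjusted p = 0.912), and in neutrophil precursor-like cells the sign of the Gstm1 value turned at resolution 2 (−0.073) and with pathway genes kept (−0.062).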

How the results depend on the processing

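In granulocyte-monocyte progenitor-like cells 2 members passed. The count was 1 with a replicate block (Gsr, edgeR adjusted p = 0.0434, and Mgst2, 0.0546), 1 with doublets kept (Gsr) and 0 in cells without Xist alone. It was also 1 in the Cpa3-led cluster alone, but there the gene was Mgst1, higher in Idh1-R132H, and neither Gsr nor Mgst2 passed. With each library left out the log2 difference ran from −0.31 to −0.27 for Gsr and from −0.45 to −0.24 for Mgst2. The count of members was 3, with Gstm1 added, with no filter, DESeq2, resolution 2, a class per cell and the Elane-led cluster alone (0.646% of all genes there). For the other fits the share of all genes called is not given. A change in the count is therefore not read as a result about the members. All genes called, 26, became 15 with the replicate block, 123 with no filter, 17 with DESeq2, 17 with doublets kept and 54 with a class per cell, and 12 to 53 with a library left out. Against 0 in the reported setting, at least 1 member passed in some fits with a library left out. This held in stem and multipotent progenitor-, monocyte-, monocyte progenitor-, neutrophil precursor- and erythroid progenitor-like cells. In monocyte progenitor-like cells 1 member passed with no filter, 1 with doublets kept and 1 in cells without Xist. In basophil or mast-like cells 1 passed with a class per cell. The share of all genes called in the same fits is not given here, so these counts are not read as a result about the members. The 1 member whose effect differed between granulocyte-monocyte progenitor- and neutrophil precursor-like cells became 0 at resolution 2. Signs changed for Gsr (0.060) and Gstm1 (0.0034) in the Cpa3-led cluster, for Gstm1 in neutrophil precursor-like cells with pathway genes kept (−0.062) and at resolution 2 (−0.073) and in basophil or mast-like cells with doublets kept (−0.049), and for Gstp1 (0.017) and Me2 (0.32) in the G2 and M phase cluster without Xist. The cause was not tested. Of the 40 members, 39 kept their class of highest level with free RNA subtracted and 36 with a class per cell. With 1 library left out, the fit assumes for the remaining library of that group the spread of the other. The replicate block changed no other member's call, and the deviations of same-numbered libraries correlated at −0.074 in granulocyte-monocyte progenitor-like cells (over 8217 genes, which are not independent) and from −0.19 in neutrophil- to 0.22 in monocyte- and 0.30 in basophil or mast-like cells, so the numbers are not shown to pair the libraries. With crossed numbers, 13 genes and no member passed in neutrophil-like cells (11 reported), and 18 genes and no member in mature B-like cells (0 reported).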
